A study of Rattus norvegicus with 24 samples.

Results

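The central nucleus of the amygdala (CEA) was compared with the paraventricular nucleus of the hypothalamus (PVN) in rats that had been operated on. The libraries were chosen by their labels alone: the 9 CEA and 9 PVN libraries of the 3 operated groups were used, which is 18 of the 24 mRNA libraries of the series. All animals were male Sprague-Dawley rats, 7 weeks old when bought, and all 18 libraries came from groups with part of the left liver lobe removed (partial hepatectomy). The HT group had the operation only. The EA group also had electroacupuncture, that is needles with electrical current, at the leg points ST 36 (Zusanli) and SP 6 (Sanyinjiao), before and after the operation, and the SEA group had needles at the same points without current. Rats of all 4 groups, the controls included, were held in the restraint device for the same time, and tissue was taken after the last treatment at a single time. Each of the 6 groups held 3 libraries, and the 6 libraries of unoperated controls (NC) served only as a second set to look at. Both regions were cut out after the Allen atlas, so each library is a mix of every cell type in the piece, and the brain samples did not come from one and the same animal. The methods state 12 rats in the 4 groups, which is fewer than the 24 libraries, and no label ties a library to an animal. Whether libraries share an animal is therefore not settled, and the p-values treat all of them as separate samples. Total counts ran from 13152772 to 18607032 per library, and a count of 0 in a library allows up to 3 counts, or 0.157 to 0.241 CPM on the scale used for levels, counting error only. CPM is a gene's count scaled to the library's size, per 1e6 counts.

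The PVN is a hypothalamic nucleus whose neurosecretory neurons make vasopressin, oxytocin, corticotropin-releasing hormone (CRH) and thyrotropin-releasing hormone. These peptides are released into the blood or the portal vessels of the pituitary and set water balance, the stress axis and the thyroid axis. The CEA is a nucleus of the telencephalon, built mostly from GABAergic neurons, that passes emotional and stress signals on to the hypothalamus and brainstem. It lies next to the striatum and shares with it an origin in the ventral telencephalon, so both use transcription factors and signalling proteins of GABAergic projection neurons.

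The regions differed widely. Of 16431 genes tested, 8930 (54.3%) had an edgeR adjusted p-value under 0.05, 4608 (28%) on the CEA side and 4322 (26.3%) on the PVN side. Many of these differences were small: 4938 of the 8930 had an estimate under 1.5-fold. A second test, which asks whether a difference exceeds 2-fold, passed 945 genes (5.75%), 401 on the CEA side (2.44%) and 544 on the PVN side (3.31%). "Over 2-fold" means this second test from here on, and "higher" or "lower" without it means the first test. The values of the 9 CEA libraries did not overlap those of the 9 PVN libraries for 3379 genes (20.6%), and 894 of the 945 were among them. At the other end, the 95% confidence interval of the difference lay within 1.5-fold for 8534 genes. The median log2 fold change (CEA minus PVN throughout) over all genes was 0.02. The 544 genes over 2-fold in the PVN had a median level of 9.23 CPM there, and the 401 of the CEA a median of 34.2 CPM. Transcription factors, by the table's own annotation, made up 52 of the 544, 25 of the 401 and 1097 of all genes tested.

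**Figure D1:**
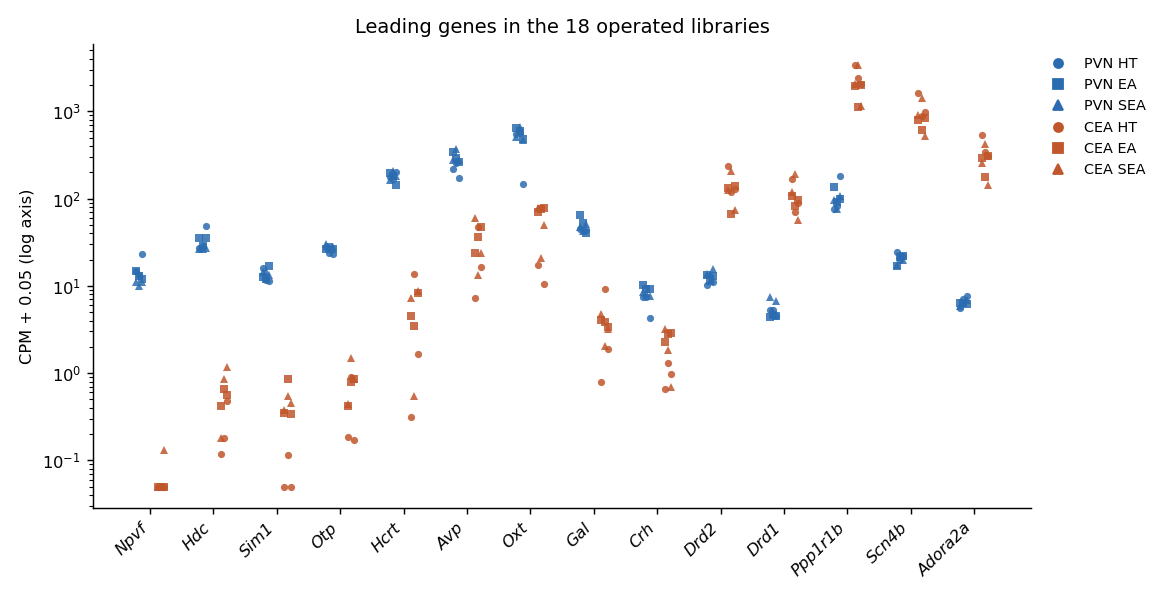
Level of 14 genes in each of the 18 operated libraries, in CPM plus 0.05 on a log axis, with 1 point per library, the PVN in blue and the CEA in orange. Otp lies at 23.3 CPM or more in every PVN library and at 1.44 CPM or less in every CEA library, and Scn4b shows the opposite order.

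Many hypothalamic peptide genes were higher in the PVN. Of 26 neuropeptide genes tested, 14 were over 2-fold higher in the PVN and 2, Penk and Tac1, over 2-fold higher in the CEA, with a median log2 fold change of -2.28. Oxt, which encodes oxytocin, had 148 to 653 CPM (median 547) in the PVN and 10.5 to 78.1 CPM (median 69.8) in the CEA. The groups did not overlap, although PVN HT replicate 3 was far below the other PVN libraries, and the difference was about 10-fold (log2 fold change -3.32, SE 0.36, edgeR adjusted p = 3.42e-07). Avp, which encodes vasopressin, had 171 to 373 CPM (median 278) in the PVN against 7.17 to 59.0 CPM (median 24) in the CEA (log2 fold change -3.17, SE 0.30, edgeR adjusted p = 7.94e-08). The 2 genes are neighbours in the table, Avp at chromosome 3, 123117492 to 123119460, minus strand and Oxt at chromosome 3, 123106694 to 123107534, plus strand, 9957 bases apart. These are positions as the table gives them. No build is named there, and genes on chromosome 1 reach position 282724300, past the end of that chromosome in the build the methods give, so the build is not settled. Both genes were detected in every CEA library, at 7.17 CPM or more for Avp and 10.5 CPM or more for Oxt. As in all bulk tissue, fewer cells of a type and less RNA per cell cannot be told apart here.

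Crh, the gene of the hormone that starts the stress response, was read at a low count in both regions. It had 4.24 to 10.1 CPM (median 8.18) in the PVN and 0.603 to 3.16 CPM (median 1.81) in the CEA, with no overlap (log2 fold change -2.20, SE 0.22, edgeR adjusted p = 1.32e-07). Trh, of thyrotropin-releasing hormone, had 54.1 to 103 CPM (median 93.5) in the PVN and 10.4 to 61.2 CPM (median 35.1) in the CEA, so the groups overlapped. It was higher in the PVN (log2 fold change -1.37, SE 0.24, edgeR adjusted p = 8.95e-05) but did not pass the 2-fold test. Sst, of somatostatin, differed least of these peptides, with 163 to 297 CPM (median 235) in the PVN and 111 to 255 CPM (median 175) in the CEA (log2 fold change -0.41, SE 0.13, edgeR adjusted p = 0.0129). The Sst log2 fold change was -0.35 without CEA EA replicates 1 and 2 and CEA SEA replicate 2 (edgeR adjusted p = 0.0794), so the call was lost, as it was in HT alone and in SEA alone.

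Peptides of other hypothalamic nuclei stood higher in the PVN libraries too, some of them more than Avp or Oxt. The PVN libraries thus held RNA of genes that mark other nuclei. The name PVN is kept here, as CEA is below, as the label of the dissection. Npvf, the RFamide peptide of the dorsomedial hypothalamus, had 9.80 to 23.1 CPM (median 12.9) in the PVN and a single count in the 9 CEA libraries together, 8 of which were at 0. The ratio of its summed counts was 2077 with a 95% counting interval of 372 to 82084 (edgeR adjusted p = 1.73e-13). Hcrt, of the orexin neurons of the lateral hypothalamus, had 141 to 204 CPM (median 180.2) in the PVN and 0.268 to 13.7 CPM (median 4.49) in the CEA (log2 fold change -5.07, SE 0.44, edgeR adjusted p = 2.03e-08). Its level varied widely among the CEA libraries and little among those of the PVN, and the groups did not overlap. Other members over 2-fold in the PVN were Adcyap1 (PACAP, -4.42), Gal (galanin, -3.72), Cartpt (-3.37), Pomc (-3.12), Agrp (-3.18), Ghrh (-3.20) and Kiss1 (-3.12), with Ucn3 (-3.52) and Npb (-2.36), as log2 fold changes. Pomc, Agrp, Ghrh and Kiss1 are genes of the arcuate nucleus, which lies below the PVN. Pmch, of the melanin-concentrating hormone neurons, had 0 counts in all 18 libraries and Npy had at most 7 counts in any, so neither was tested. Among peptide genes with an edgeR adjusted p-value under 0.05 that were higher in the CEA, Penk (enkephalin) had 349 to 1174 CPM (median 733) there and 151 to 192 CPM (median 166) in the PVN (log2 fold change 2.17, SE 0.17, edgeR adjusted p = 4.99e-09), Tac1 (substance P) had a log2 fold change of 1.65, Vip one of 1.83 and Pdyn (dynorphin) one of 0.66.

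The upstream sequences of 4 of these genes and of the CEA-high gene Scn4b are shown as the DNA next to the main hormone genes of the PVN and to genes with a large difference, 150 bases up to the annotated start, 5′ to 3′ on the gene's strand (RefSeq, build GRCr8, which differs from that of the table). Capitals mark each match on either strand to the motifs TATAAA (the TATA box), GGGCGG (a GC box), TAATTA (a core bound by homeodomain factors), TGACGTCA (the cyclic AMP response element) and CAGCTG (an E-box). The last 3 read the same on both strands, and no match overlaps another in these 5 windows.
Avp (chr3:138248523-138248672, minus strand): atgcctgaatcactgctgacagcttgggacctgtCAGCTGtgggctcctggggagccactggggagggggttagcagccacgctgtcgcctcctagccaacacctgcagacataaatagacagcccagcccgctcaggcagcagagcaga
Oxt (chr3:138235604-138235753, plus strand): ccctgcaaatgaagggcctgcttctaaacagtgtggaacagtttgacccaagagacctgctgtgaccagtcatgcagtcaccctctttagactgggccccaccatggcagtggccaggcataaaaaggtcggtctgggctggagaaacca
Hcrt (chr10:86191525-86191674, minus strand): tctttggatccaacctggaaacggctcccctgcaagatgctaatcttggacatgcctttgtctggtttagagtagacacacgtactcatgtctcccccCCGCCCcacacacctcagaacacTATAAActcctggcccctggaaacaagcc
Npvf (chr4:81047046-81047195, minus strand): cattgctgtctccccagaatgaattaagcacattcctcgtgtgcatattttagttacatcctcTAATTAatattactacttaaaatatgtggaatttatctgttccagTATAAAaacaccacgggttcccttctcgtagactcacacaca
Scn4b (chr8:54343723-54343872, plus strand): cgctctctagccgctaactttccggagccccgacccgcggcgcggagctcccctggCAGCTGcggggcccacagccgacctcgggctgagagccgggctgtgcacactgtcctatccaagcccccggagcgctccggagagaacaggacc
TATAAA lies 29 bases before the start of Hcrt and 42 before that of Npvf, and is not in the window of the other 3. Avp and Scn4b each hold 1 CAGCTG, 116 and 94 bases before the start, and Oxt holds none of the 5 motifs. Over the 250 bases before the start of 10002 tested genes with a single listed start, TATAAA was found in 6.33%, in 10.4% of the 309 such genes over 2-fold in the PVN and in 8% of the 225 over 2-fold in the CEA. GGGCGG was found in 58.6%, 47.9% and 53.3% in the same order, TAATTA in 1.97%, 3.56% and 4.0%, CAGCTG in 12.8%, 17.2% and 19.6%, and TGACGTCA in 2.84%, 3.56% and 1.78%. These are descriptions of letters, and no binding was measured.

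The transcription factors that build hypothalamic neurons had the lowest median of the lists. Of 24 tested, 17 were over 2-fold higher in the PVN and 0 in the CEA (median log2 fold change -3.23), and leaving out any 1 library gave 16 to 18. Sim1 and Otp, which specify the neurosecretory neurons of the PVN, were among the leading genes. Sim1 had 11.4 to 16.7 CPM (median 13.3) in the PVN and 0 to 0.816 CPM (median 0.295) in the CEA (log2 fold change -5.53, SE 0.31, edgeR adjusted p = 1.14e-10). Otp had 23.3 to 30.0 CPM (median 26.4) and 0.123 to 1.44 CPM (median 0.748) (log2 fold change -5.39, SE 0.23, edgeR adjusted p = 8.72e-12). Neither overlapped between regions. Factors of other hypothalamic nuclei were higher in the PVN too: Fezf1 and Nr5a1 of the ventromedial nucleus (-5.57 and -5.13 as log2 fold changes), Hmx2 and Hmx3 (-5.85 and -6.71), Six6 (-6.45) and Lhx1 of the suprachiasmatic nucleus (-4.26). Sox14 had 2 counts in the CEA and 423 in the PVN, a ratio of 211 (95% counting interval 58.1 to 1748). Nkx2-1, the factor of the ventral hypothalamus, was less unequal, at 18.9 to 32.7 CPM (median 23.7) in the PVN and 3.27 to 10.2 CPM (median 8.57) in the CEA (log2 fold change -1.61, SE 0.16, edgeR adjusted p = 1.68e-07). It is also a factor of the ventral telencephalon. Six3 was the member higher in the CEA (0.85). Outside the lists, Ebf3 (-4.16), another transcription factor, and Pgr15l (-3.94), a G protein-coupled receptor, were among the 15 largest log2 fold changes on the PVN side once genes were limited to those with at least 10 CPM there, a symbol and no overlap.

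Genes of amine neurons split by transmitter. Hdc, which makes histamine and marks the tuberomammillary nucleus of the hypothalamus, had 26.5 to 48.1 CPM (median 28.4) in the PVN and 0.067 to 1.12 CPM (median 0.432) in the CEA (log2 fold change -6.07, SE 0.27, edgeR adjusted p = 1.32e-11). Th, the rate-limiting enzyme of dopamine synthesis, had 19.5 to 33.0 CPM (median 23.8) in the PVN and 0.469 to 1.72 CPM (median 1.25) in the CEA (log2 fold change -4.45, SE 0.18, edgeR adjusted p = 4.02e-12), and the dopamine transporter Slc6a3 (-4.54) and the vesicular monoamine transporter Slc18a2 (-2.14) were over 2-fold higher in the PVN as well. The opposite held for acetylcholine. Chat, the enzyme of acetylcholine synthesis, had 15.9 to 39.0 CPM (median 24.8) in the CEA and 0.888 to 6.25 CPM (median 2.54) in the PVN (log2 fold change 3.14, SE 0.32, edgeR adjusted p = 1.75e-07), and the vesicular transporter Slc18a3 (2.97), the choline transporter Slc5a7 (2.45) and the factor Lhx8 (2.20) were over 2-fold higher in the CEA. Of 11 amine and acetylcholine genes tested, 4 were thus over 2-fold in the PVN and 6 in the CEA. Tph2, of serotonin synthesis, was also over 2-fold higher in the CEA, with 0.476 to 4.02 CPM (median 2.06) there and 0.261 to 1.07 CPM (median 0.372) in the PVN, so the groups overlapped (log2 fold change 2.08, SE 0.34, edgeR adjusted p = 4.95e-05). Ddc, which acts in both the dopamine and the serotonin pathway, was higher in the PVN and did not pass the 2-fold test (-1.33).

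Receptors for peptides were tilted to the PVN. Of 41 tested, 21 were over 2-fold higher in the PVN and 0 in the CEA (first test: 30 and 4), with a median log2 fold change of -1.48. Calcr, the calcitonin and amylin receptor, had 87.1 to 148 CPM (median 124) in the PVN and 1.36 to 13.4 CPM (median 7.55) in the CEA (log2 fold change -3.96, SE 0.28, edgeR adjusted p = 1.79e-09). The largest differences of the list besides that of Calcr were log2 fold changes of -4.29 for the ghrelin receptor Ghsr, -4.09 for the melanocortin receptor Mc3r and -3.30 for Brs3, while the melanocortin receptor Mc4r was higher in the CEA (0.67) and the leptin receptor Lepr (-0.02) did not pass the test. For the stress and neurosecretory peptides, Crhr2 had 3.24 to 7.86 CPM (median 6.35) in the PVN and 0.882 to 3.55 CPM (median 1.09) in the CEA (log2 fold change -1.98, SE 0.26, edgeR adjusted p = 3.61e-06), and the vasopressin receptor Avpr1a had 4.02 to 5.91 CPM (median 4.83) and 0.938 to 2.11 CPM (median 1.37) (log2 fold change -1.86, SE 0.13, edgeR adjusted p = 1.79e-09). The oxytocin receptor Oxtr was higher in the PVN (log2 fold change -1.60, SE 0.28, edgeR adjusted p = 8.32e-05) at low levels that overlapped. Crhr1 did not pass the test, and its log2 fold change of -0.12 had a 95% confidence interval of -0.37 to 0.13.

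The opioid receptors differed in direction. Oprm1, the mu receptor, had 8 to 19.2 CPM (median 13.9) in the PVN and 1.84 to 10.1 CPM (median 6.11) in the CEA (log2 fold change -1.10, SE 0.24, edgeR adjusted p = 0.000886), with overlap. Oprk1, the kappa receptor, did not overlap between regions and was higher in the PVN (log2 fold change -1.17, SE 0.16, edgeR adjusted p = 5.86e-06). Oprd1, the delta receptor, was higher in the CEA without overlap (log2 fold change 1.23, SE 0.19, edgeR adjusted p = 1.92e-05), and the nociceptin receptor Oprl1 was over 2-fold higher in the PVN (-1.85). None of Oprm1, Oprk1 and Oprd1 passed the 2-fold test. Agtr2, of angiotensin, had 0 to 4.57 CPM (median 1.97) in the CEA and 0.766 to 2.13 CPM (median 1.28) in the PVN and passed neither test (log2 fold change 0.84, SE 0.53, edgeR adjusted p = 0.193, 95% confidence interval -0.28 to 1.95).

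Imprinted genes, of which the mother's or the father's copy alone is read, also stood higher in the PVN. Of 22 rows tested, 14 were over 2-fold higher in the PVN and 0 in the CEA, with a median log2 fold change of -1.48, and the same count was found when any 1 library was left out. Their summed level was 2342 to 3558 CPM in the CEA libraries (median 3050.0) and 7581 to 8572 CPM in the PVN libraries (median 8032). Peg3 had 2137 to 2602 CPM (median 2339) in the PVN against 581 to 948 CPM (median 741) in the CEA (log2 fold change -1.66, SE 0.08, edgeR adjusted p = 1.41e-11), and Nap1l5 (-1.66), Nnat (-1.57) and Impact (-1.30) were over 2-fold higher too. Plagl1 (-3.37), Dlk1 (-3.10), Asb4 (-3.02) and Magel2 (-2.79) had larger differences. Igf2, Cdkn1c, Inpp5f and Snrpn did not pass the test. Calcr is a member of this list and of the peptide receptors. Genes of peptide processing were less unequal. Of 15, 3 were over 2-fold in the PVN, namely the granule protein Scg2 (-1.88), Cadps2 (-1.91) and the convertase Pcsk1 (-2.37), while Pcsk2, Scg3 and Scg5 did not pass the first test.

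**Figure D2:**
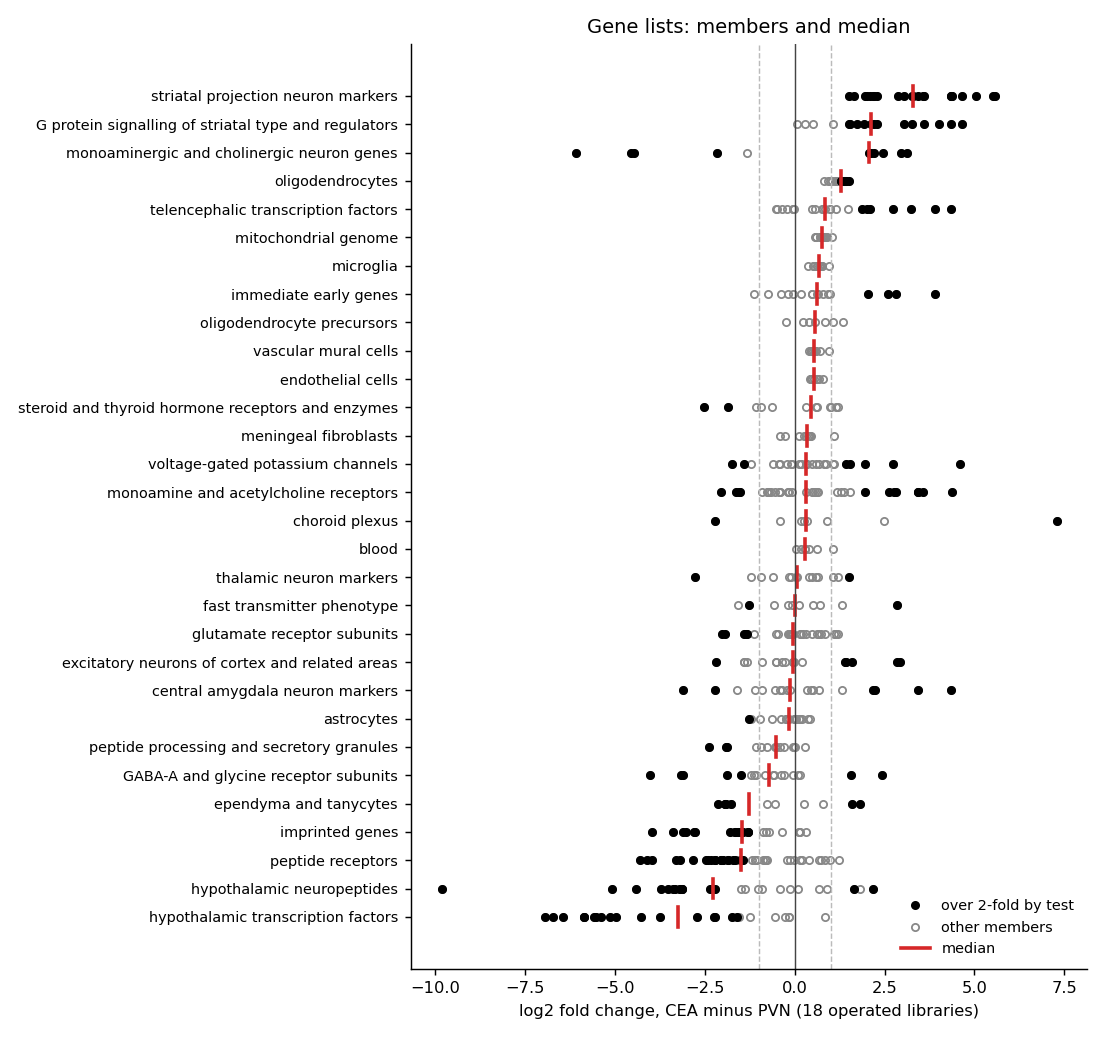
Log2 fold change (CEA minus PVN, 18 operated libraries) of each tested member of the gene lists with 6 or more genes tested, 1 row per list, ordered by the list's median (red bar). Filled points passed the 2-fold test and open points did not. Hypothalamic transcription factors lie farthest to the left (median -3.23) and striatal projection neuron markers farthest to the right (median 3.28).

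On the CEA side, genes of striatal projection neurons, the spiny GABAergic cells that carry dopamine receptors, had the highest median of the lists. All 22 of 22 genes on this list were over 2-fold higher in the CEA, with a median log2 fold change of 3.28 and a range of 1.51 to 5.56, and leaving out any 1 library gave 21 to 22. Adora2a, the adenosine receptor of indirect-pathway neurons (chromosome 20, 14265252 to 14282873, minus strand), had 145 to 536 CPM (median 306) in the CEA and 5.56 to 7.54 CPM (median 6.37) in the PVN (log2 fold change 5.56, SE 0.21, edgeR adjusted p = 1.8e-12). Scn4b, a sodium channel subunit (chromosome 8, 49441106 to 49456279, plus strand), had 514 to 1629.6 CPM (median 870.5) and 16.8 to 24.4 CPM (median 21.3) (log2 fold change 5.51, SE 0.20, edgeR adjusted p = 1.8e-12). Ppp1r1b, the dopamine-regulated phosphatase inhibitor DARPP-32, had 1116 to 3380.3 CPM (median 2031) in the CEA and 75.0 to 181 CPM (median 96.8) in the PVN (log2 fold change 4.34, SE 0.24, edgeR adjusted p = 1.06e-10). In each of these genes the lowest CEA library stood at several times the highest PVN library. The G protein subunit Gng7 had a log2 fold change of 4.65.

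Both dopamine receptors of these neurons were higher in the CEA. Drd1 had 57.1 to 189 CPM (median 96.4) in the CEA and 4.38 to 7.48 CPM (median 4.64) in the PVN (log2 fold change 4.38, SE 0.22, edgeR adjusted p = 2.62e-11), and Drd2 had 66.8 to 235 CPM (median 128) and 10.2 to 15.5 CPM (median 12.8) (log2 fold change 3.43, SE 0.21, edgeR adjusted p = 3.11e-10). The signalling genes downstream of such receptors were read as a list. Of 17 genes of G protein, cyclic nucleotide and RGS signalling, 13 were over 2-fold higher in the CEA and 0 in the PVN (median 2.14), a list that shares 7 members with the striatal one. Arpp21 (4.02), Rgs9 (3.58), the phosphodiesterases Pde10a (3.28) and Pde2a (2.14), the olfactory-type G protein Gnal (1.72) and Rgs14 (1.92) were among them, and Rgs16 did not pass the first test. Of the other receptors for monoamines and acetylcholine, the muscarinic receptors Chrm1 (3.57) and Chrm4 (3.42), the adrenergic Adra2c (2.83) and Adra1d (1.94), and the serotonin receptors Htr6 (2.75) and Htr1d (2.63) were over 2-fold higher in the CEA. Htr1a, a serotonin receptor, had 6.42 to 9.10 CPM (median 7.48) in the PVN and 0.962 to 3.62 CPM (median 1.66) in the CEA with no overlap (log2 fold change -2.03, SE 0.22, edgeR adjusted p = 3.16e-07). Chrna7 (-1.62), Adra2a (-1.56) and Chrm5 (-1.53) were, like Htr1a, over 2-fold higher in the PVN. The whole list of 35 had 8 genes over 2-fold in the CEA and 4 in the PVN.

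Transcription factors of the telencephalon were higher in the CEA in 16 of 23 cases and in the PVN in 0, with 7 over 2-fold. Bcl11b, a factor of striatal and deep-layer cortical neurons, had 91.3 to 291 CPM (median 156) in the CEA and 6.21 to 11.7 CPM (median 8.56) in the PVN (log2 fold change 4.34, SE 0.21, edgeR adjusted p = 1.76e-11). Egr3 (3.90), also on the list of immediate early genes, Meis2 (3.24), Rarb (2.08), Foxp1 (2.02) and Sp9 (1.88) were among the others over 2-fold. The factors Tbr1 (-0.05), Neurod2 (-0.06) and Neurod6 (-0.52) of cortical excitatory neurons passed neither test. They lay at 2.06 CPM or less at the median of the CEA libraries. Among the 15 leading genes of the CEA by the naming rule were Lrrc10b (5.29), Dmkn (5.18), Ankrd63 (5.02) and Ptprv (4.92), the inositol trisphosphate kinase Itpka (4.76), the inward rectifier channel Kcnj4 (4.15) and the potassium channel Kcnh3 (4.6).

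The label of the CEA libraries was checked against marker genes of central amygdala neurons, and these gave no one direction. Of 19 tested, 4 were over 2-fold higher in the CEA (Ppp1r1b, Drd2, Cyp26b1 and Penk) and 2, Dlk1 and Crh, in the PVN, with a median of -0.12. By the first test 9 were higher in the CEA and 7 in the PVN. Ppp1r1b, Drd2 and Penk are on the striatal list as well. Prkcd, the protein kinase C delta of the lateral division of the CEA, had 20.6 to 559.7 CPM (median 176) in the CEA libraries and 55.3 to 157 CPM (median 98.9) in those of the PVN. The lowest CEA library was below all PVN libraries and the highest above all of them. The 4 CEA libraries highest in Prkcd (SEA replicate 3, HT replicate 3, EA replicate 2 and HT replicate 2, at 559.7, 529, 494 and 342 CPM) were also the 4 highest in summed thalamic markers, at 2079.6, 1972, 1958 and 1563 CPM, and HT replicate 1 was lowest in both. The part of thalamic markers in the Prkcd level was not tested. The Prkcd log2 fold change, 1.32 with an SE of 0.48 (edgeR adjusted p = 0.0272), did not stay under the threshold without CEA EA replicate 2, CEA HT replicate 3 or CEA SEA replicate 3 (adjusted p 0.0729, 0.0667 and 0.0968). The markers Oxtr (-1.60), Nts (-0.90) and Sst (-0.41) were lower in the CEA than in the PVN, and Calcrl (0.33), Igfbp4 (0.46), Ezr (0.52) and Pdyn (0.66) were higher, while Isl1, Il1rapl2 and Crhr1 passed neither test. Summed, the list had 2481 to 5229 CPM in the CEA libraries (median 3562) and 967 to 1099 CPM in the PVN libraries (median 989), with no overlap, and Ppp1r1b and Penk, both striatal markers too, held most of that sum in the CEA. Member by member the central amygdala list thus had no one direction, and the name CEA is kept here as the label of the dissection.

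How much striatal-type RNA a library held varied. The summed level of the 22 striatal markers was 5174 to 15434 CPM in the CEA libraries (median 9018) and 891 to 1047 CPM in the PVN libraries (median 918), a ratio of 2.98 between the highest and lowest CEA library and 1.18 between those of the PVN. CEA HT replicate 1 (15434 CPM) and CEA SEA replicate 2 (14182 CPM) were highest, and CEA SEA replicate 3 (5174 CPM) and CEA EA replicate 2 (5764 CPM) lowest. Thalamic markers ran the other way in some of the same libraries, with 2079.6 CPM in CEA SEA replicate 3, 1958 in CEA EA replicate 2 and 849.7 in CEA HT replicate 1, and 904 to 1191 CPM in the PVN. The hypothalamic transcription factors summed to 194 to 273 CPM in the CEA libraries (median 250.4) and 383 to 425 CPM in the PVN libraries (median 407). In the CEA, Sim1, Otp and Fezf1 held little of that sum, at no more than 0.816, 1.44 and 0.592 CPM. Of the 24 members tested, 21 were higher in the PVN, while Six3, also on the telencephalic list, was higher in the CEA. Within a treatment group, the SD of log2 CPM had a median over genes of 0.275 in the CEA and 0.141 in the PVN, and it was larger in the CEA for 86.8% of genes. The part of these markers in that spread was not tested.

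**Figure D3:**
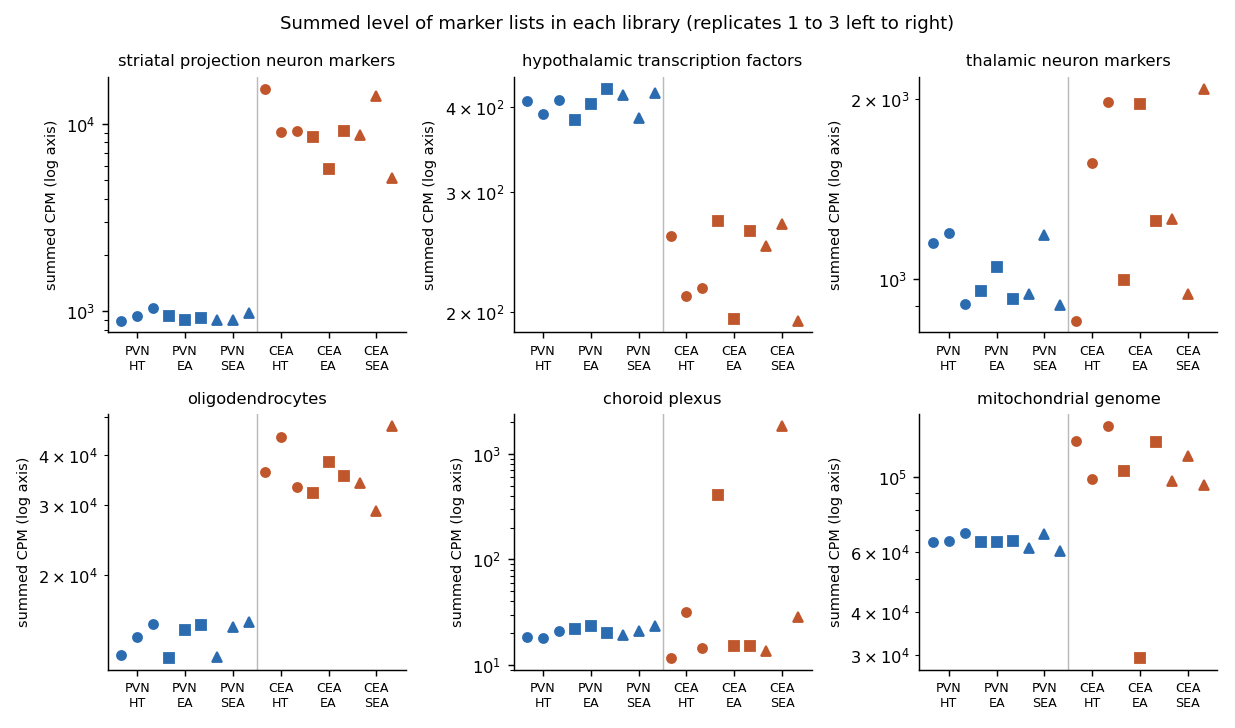
Summed level (CPM, log axis) of 6 marker lists in each of the 18 libraries, PVN in blue and CEA in orange, replicates 1 to 3 from left to right within each group. Striatal markers are at 5174 CPM or more in every CEA library and at 1047 or less in every PVN library, while choroid plexus genes stand out in 2 CEA libraries and mitochondrial genes are low in 1.

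Several CEA libraries stood apart by other markers or in their whole profile. On the second principal component of the 18 libraries, CEA HT replicate 2 lay at -63.8 and the other 8 CEA libraries between -13 and 33.9, and without it 9402 genes passed the first test and 1011 were over 2-fold. Choroid plexus genes summed to 1831 CPM in CEA SEA replicate 2 and 405 CPM in CEA EA replicate 1, against 11.6 to 31.4 CPM in the other 16. Of 8 choroid plexus genes tested, 1, Ttr, was over 2-fold higher in the CEA (2 on leaving out any 1 of 7 libraries) and 1, Prlr, in the PVN (-2.20), and 6 more did not pass the filter on low counts. Of these, Cldn2, F5, Sostdc1, Kcnj13 and Aqp1 each had 125 to 421 counts in the CEA, of which 105 to 308 came from a single library, and 9 to 87 in the PVN. Otx2 had 0 counts in the CEA and 1 in the PVN. Ttr, which encodes transthyretin, the thyroid hormone carrier made by the choroid plexus, had the largest log2 fold change of the named CEA genes. It had 3.88 to 1684 CPM (median 7.65) in the CEA and 0.241 to 1.93 CPM (median 0.85) in the PVN (log2 fold change 7.29, SE 1.42, edgeR adjusted p = 0.000276). Without the 2 libraries of high choroid plexus level the Ttr log2 fold change was 3.23 (edgeR adjusted p = 3.37e-06), and the part of choroid plexus in the value over all libraries was not tested. Genes of the mitochondrial genome took 3.80% of the counts in CEA EA replicate 2, 10.1 to 14.4% in the other CEA libraries and 7.07 to 8.01% in the PVN. Without CEA EA replicates 1 and 2 and CEA SEA replicate 2, 8595 genes passed the first test and 928 the 2-fold test, in place of 8930 and 945, so neither count rested on them.

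The vesicular glutamate transporters went in opposite directions. Slc17a6, the transporter of hypothalamic and thalamic neurons, had 301 to 396 CPM (median 345) in the PVN and 6.56 to 293 CPM (median 90.3) in the CEA (log2 fold change -1.56, SE 0.45, edgeR adjusted p = 0.00696) and did not pass the 2-fold test. Slc17a7, that of cortex, hippocampus and basolateral amygdala, had 7.23 to 309 CPM (median 66.9) in the CEA and 7.49 to 16.1 CPM (median 11.9) in the PVN (log2 fold change 2.84, SE 0.48, edgeR adjusted p = 7.19e-05). CEA HT replicate 3 was highest in Slc17a7, and the lowest CEA library, CEA HT replicate 1, lay below all 9 PVN libraries. Of the 19 genes of such excitatory neurons, 5 were over 2-fold higher in the CEA (Slc17a7, Lamp5, Camk2a, Mef2c and Lmo3) and 1, Rprm, in the PVN (3 without CEA HT replicate 3, 2 without CEA SEA replicate 2 or PVN SEA replicate 2), with a median of -0.06. The genes of GABA synthesis differed less. Of all 10 genes of the fast transmitter list, 1 was over 2-fold in the CEA (Slc17a7) and 1 in the PVN (the GABA transporter Slc6a11), a call that most single libraries decide, as given below for astrocytes. Gad1 had 320.4 to 558 CPM (median 478) in the CEA and 258 to 329 CPM (median 291) in the PVN (log2 fold change 0.71, SE 0.08, edgeR adjusted p = 5.79e-07), the vesicular transporter Slc32a1 a log2 fold change of 0.50 (edgeR adjusted p = 0.00144), and Gad2 passed neither test (log2 fold change 0.13, SE 0.10, edgeR adjusted p = 0.279, 95% confidence interval -0.08 to 0.34).

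Receptor subunits for these transmitters were unequal one by one. Of 18 GABA-A and glycine receptor subunits, 5 were over 2-fold higher in the PVN, namely Gabrq (-4.01), Glra3 (-3.15), Gabre (-3.10), Glra1 (-1.89) and Gabra5 (-1.48), and 2 in the CEA, Gabrd (2.43) and Gabra4 (1.56). Gabrq, the theta subunit, had 18 to 26.5 CPM (median 21.2) in the PVN and 0.469 to 2.58 CPM (median 0.999) in the CEA. Gabrd, the delta subunit of extrasynaptic receptors, had 68.1 to 165 CPM (median 85.4) in the CEA and 9.83 to 30.0 CPM (median 19.2) in the PVN. Of 26 glutamate receptor subunits, 5 were over 2-fold higher in the PVN (Grm6, Grm2, Grm8, Grin3a and Grik1) and 0 in the CEA (1 without CEA HT replicate 2), and the median was -0.05. The AMPA subunit Gria2 and the NMDA subunit Grin1 were close between regions, with log2 fold changes of 0.15 for Gria2, which did not pass the test, and 0.16 for Grin1, which did.

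All 19 of 19 oligodendrocyte genes were higher in the CEA, 10 of them over 2-fold, a count that ran from 8 to 13 when 1 library was left out. Mbp, a main protein of myelin, had 14418 to 23274 CPM (median 17353) in the CEA and 5542 to 6945 CPM (median 6587) in the PVN (log2 fold change 1.5, SE 0.09, edgeR adjusted p = 3.65e-10). All 12 microglia genes tested were higher in the CEA by less (0.37 to 0.96 as log2 fold changes), as were 8 of 9 endothelial genes and 10 of 10 genes of vascular mural cells. None of these 3 lists held a gene over 2-fold. Astrocyte genes were close between regions: 8 of 17 were higher in the PVN and 3 in the CEA, with a median of -0.17, and 1 gene, the GABA transporter Slc6a11, was over 2-fold (-1.27). Its call was close to the threshold (edgeR adjusted p against 2-fold = 0.0455). It was lost on leaving out any 1 of 12 libraries and kept on leaving out CEA EA 3, HT 3, SEA 1 or SEA 3 or PVN EA 1 or SEA 1. Of 13 protein genes of the mitochondrial genome, 12 were higher in the CEA (log2 fold changes over the list 0.57 to 1.03), where CEA EA replicate 2 was the low exception. Genes of blood (7 rows) passed neither test.

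Genes of hormone receptors and of neuronal activity were also read. The mineralocorticoid receptor Nr3c2 had 8.48 to 17.4 CPM (median 14.0) in the CEA and 7.31 to 10.1 CPM (median 9.30) in the PVN (log2 fold change 0.62, SE 0.10, edgeR adjusted p = 3.5e-05), and the glucocorticoid receptor gene Nr3c1 was not analysed here. Of 12 steroid and thyroid genes tested, 2 were over 2-fold higher in the PVN, among them the estrogen receptor Esr1 (-2.52), and 0 in the CEA (1 without CEA EA replicate 2, CEA HT replicate 1 or PVN EA replicate 1). By the first test 7 were higher in the CEA and 4 in the PVN, with a median log2 fold change of 0.45. Of 17 immediate early genes, which neurons switch on when active, 4 were over 2-fold higher in the CEA: Egr3 (3.90), Egr4 (2.81), Arc (2.60) and Egr2 (2.03). Fos went the other way, with 9.47 to 24.6 CPM (median 14.1) in the PVN and 3.90 to 14.8 CPM (median 7.18) in the CEA (log2 fold change -1.13, SE 0.18, edgeR adjusted p = 4.17e-05), and Jun, Btg2 and Npas4 passed neither test.

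Whether the regional difference depended on the treatment was asked with an interaction of region with HT, EA and SEA. No gene of 17539 passed at an edgeR adjusted p-value under 0.05 (0%), and 603 (3.44%) had an unadjusted p under 0.05. The smallest adjusted p was 0.755. Without CEA HT replicate 1 the unadjusted count was 1607 in place of 603, and without CEA HT replicate 3 it was 924. DESeq2 called 10. Within each group alone, all the genes over 2-fold that could be tested there had the direction of the pooled fit: 943 of 943 in HT, 943 of 943 in EA and 939 of 939 in SEA, with the limit that those libraries are part of the pooled fit. For Oxt the log2 fold change was -3.60 in HT, -2.94 in EA and -3.45 in SEA. For Crh it was -2.76, -1.86 and -2.08 (edgeR adjusted p of the interaction 1). For Drd1 it was 4.45, 4.39 and 4.30. With 3 libraries a group, a difference that misses the threshold is not shown to be absent.

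**Figure D4:**
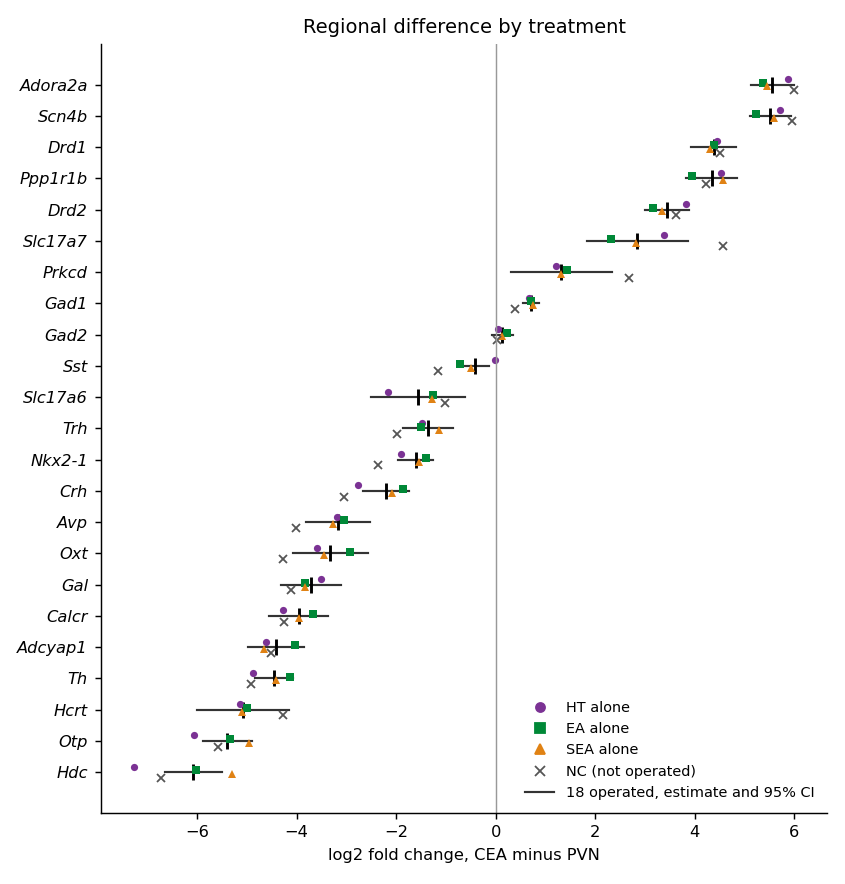
Log2 fold change (CEA minus PVN) of 23 genes in HT, EA, SEA and NC taken alone (3 and 3 libraries each), with the estimate over the 18 operated libraries and its 95% confidence interval as a black bar. Each of HT, EA and SEA puts Hdc, Oxt and Avp below 0 and Drd1, Scn4b and Adora2a above 0.

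The same contrast in the unoperated controls used none of the 18 libraries. Of the 945 genes over 2-fold in operated rats, 938 were tested in NC, and 936 of them (99.8%, exact 95% binomial interval 99.23 to 99.97%) had the same direction there. Genes are not independent replicates, so the interval describes counting only. Of these, 864 also passed an edgeR adjusted p of 0.05 in NC, where 26.4% of all genes did, and 0 passed in the opposite direction. Over all 16317 genes tested in both, 75.5% had the same direction. The median size of the log2 fold change of the 938 was 1.93 in operated rats and 2.11 in NC.

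**Figure D5:**
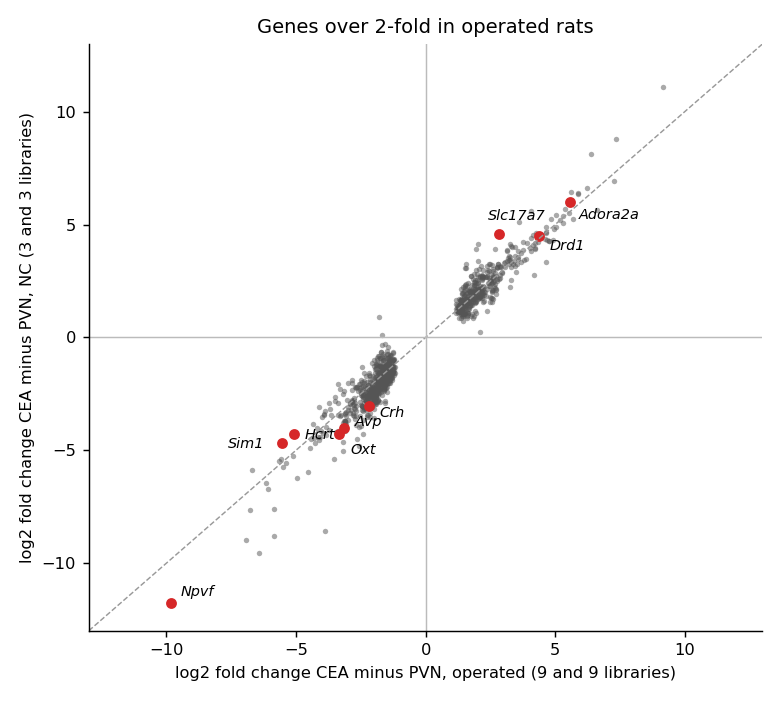
Log2 fold change (CEA minus PVN) in NC against that in operated rats, 1 point for each of the 938 genes over 2-fold in operated rats that were tested in both, with some genes named. The dashed line marks equal values. All but 2 points lie in the quadrants of equal direction.

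A test of the difference itself, the regional difference of operated rats minus that of NC, passed 0 of 17768 genes by edgeR (0%), with 2593 (14.6%) at an unadjusted p under 0.05 and 0.0918 as the smallest adjusted p. DESeq2 called 41. The unadjusted count depended on single control libraries. Leaving out the first PVN control gave 1100 genes, the third one 1513, and the third CEA control 1630, whereas leaving out the second PVN control gave 4392. The adjusted count of 0 also rested on that last library: without PVN NC replicate 2, 1795 genes passed, 325 with a larger CEA minus PVN value in operated rats and 1470 with a smaller one, and 51 of them were over 2-fold between regions in operated rats. Several named genes had larger values in NC without passing. Prkcd had a log2 fold change of 2.68 in NC and 1.32 in operated rats (edgeR adjusted p of the difference 0.561), Slc17a7 had 4.57 and 2.84 (adjusted p 0.451), and Crh -3.05 and -2.20 (adjusted p 0.429). Oprm1 was 0.65 in NC, where it did not pass the test (edgeR adjusted p = 0.553), against -1.10 in operated rats, and the difference did not pass either (adjusted p 0.26).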

How the data were processed

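The deposited table held raw counts per gene, 35032 genes by 24 libraries, made by the authors from strand-specific mRNA sequencing with HISAT2 and featureCounts per their methods. No fraction, log or normalised column was used, and 1 stray header line was dropped. The 9 CEA and 9 PVN libraries of HT, EA and SEA were compared by edgeR 4.0.16 in R 4.3.3 (quasi-likelihood test, TMM, filterByExpr, treatment as a covariate, Benjamini-Hochberg adjustment, threshold 0.05), and differences over 2-fold by edgeR's glmTreat. Interactions of region with treatment, and of region with operation over all 24 libraries, were tested in the same way. DESeq2 1.42.0, RLE size factors, no filter, no mitochondrial genes, no covariate, a replicate block and each library left out were the alternatives. Total counts of 13152772 to 18607032 per library set a precision that is finest for genes with many counts.

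Levels are TMM-scaled CPM computed here from the counts, so long genes read higher. Each gene was compared between libraries only, and medians over genes and summed lists are not adjusted for gene length. A log2 fold change is the fitted CEA minus PVN value with edgeR's default prior count. A prior count of 2 was used only for the log2 CPM behind the principal components, SDs and correlations. The fits were tested on simulated data. Named genes were, in each direction, the 15 largest log2 fold changes over 2-fold with no overlap between regions, at least 10 CPM in the higher region and a gene symbol, then for each list the genes with the highest CPM or largest changes and those needed to account for it, and a fixed set of hormone, receptor and transmitter genes. The libraries of each region were taken by their labels, while the choice of this comparison and of the gene lists was made with earlier results of these data known. Some genes that these rules cover are not reported here. Upstream sequences came from RefSeq. Setting 3 CEA libraries aside was added after seeing the data.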

Additional observations from a re-analysis of the deposited data

Results flagged for a closer look

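Of 166 sets of 9 libraries (the named genes and the list sums, by region), 23 held a library whose gap to its nearest neighbour, over the range of the set, was above Dixon's 95% critical value. Chance alone flags about 1 in 20 sets, and sets that share a library or a gene are not independent.

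PVN HT replicate 3 was the library most often apart among the 9 of the PVN. It was low in 2 hormone genes, with 148 CPM for Oxt and 4.24 CPM for Crh, and its hypothalamic neuropeptides summed to 1590.2 CPM, the lowest of the 9. It was high in genes of neighbouring nuclei, with 23.1 CPM for Npvf and 48.1 CPM for Hdc, and in the telencephalic factor Bcl11b, with 11.7 CPM. Among the other PVN libraries, EA replicate 1 was apart with 3.94 CPM for Kcnh3 and 64.5 CPM for Gal, SEA replicate 2 with 9.54 CPM for Fezf1, EA replicate 3 with 265 CPM for the summed telencephalic transcription factors, and SEA replicate 3 with 1152 CPM for the summed peptide receptors.

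In the CEA, SEA replicate 2 had 1684 CPM for Ttr and 1831 CPM for the summed choroid plexus genes. HT replicate 3 had 309 CPM for Slc17a7 and 1567 CPM for the summed genes of cortical, hippocampal and basolateral excitatory neurons. EA replicate 2 had 29299 CPM for the summed protein genes of the mitochondrial genome and 3.80% of its counts in all mitochondrial genes. HT replicate 1 was apart with 381 CPM for Lrrc10b, HT replicate 2 with 9.20 CPM for Gal and 303 CPM for the summed ependyma and tanycyte genes, SEA replicate 3 with 8.10 CPM for Crhr1, and EA replicate 3 with 6.95 CPM for the summed pituitary genes. Npvf in CEA SEA replicate 3, at 0.0802 CPM, is the single count noted above and lies under the limit that a count of 0 allows.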

How the results depend on the processing

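The count of regional differences stayed within 1.5 times its value under RLE size factors, no filter on low counts, no mitochondrial genes, no covariate, all 24 libraries, DESeq2 (first test only) and leaving out any 1 library (8447 to 9402 for the first test, 885 to 1011 over 2-fold). With 3 against 3 libraries it fell by construction, to 3551 in HT, 4642 in EA and 5052 in SEA for the first test, and to 512, 551 and 350 over 2-fold. The region by treatment count of 0 became 10 with DESeq2, 1 without PVN SEA replicate 3 (0 to 1 when 1 library was left out) and 2 without CEA EA replicates 1 and 2 and CEA SEA replicate 2, a setting chosen after seeing the data. The region by operation count of 0 became 41 with DESeq2 and 0 to 1795 when 1 library was left out, with 1795 without PVN NC replicate 2. The share of genes with the same direction in NC was 98.8 to 99.9%, with 98.8% again without PVN NC replicate 2. For these counts the cause was not tested.

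Of the named genes, Crhr1 (log2 fold change 0.025 in SEA alone) reversed, and it did not pass the test in the fit reported. Of the values of named genes under the alternatives, 1520 kept direction and side of the threshold, 26 lost the call and 2 gained it (Gad2 without CEA HT replicate 3 and Agtr2 without CEA HT replicate 1). Sst lost its call in 3, and the losses of Slc17a6, Slc32a1, Oprm1, Crhr2, Oxtr, Trh, Oprk1, Nr3c2 and Slc17a7 were in fits of 1 treatment group alone. Prkcd lost its call in 9, with edgeR adjusted p-values up to 0.362. Of the counts of list members over 2-fold, 1807 stayed within 1.5 times and 113 moved, and oligodendrocyte genes over 2-fold ran from 0 to 14 over all settings.

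Same-numbered libraries of the 2 regions did not deviate together (correlations -0.21 to 0.22), so the numbers were not taken as pairs. With the replicate block, 8663 genes passed the first test and 940 were over 2-fold, the interactions stayed at 0, and Prkcd had a log2 fold change of 0.87 (edgeR adjusted p = 0.226). Exchanging CEA EA numbers 2 and 3, as a stray header line in the table orders them, gave 8838 and 955.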

Other observations

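Potassium channel genes also differed one by one. Of 27 voltage-gated channel genes and their subunits, 5 were over 2-fold higher in the CEA and 2 in the PVN, with a median log2 fold change of 0.33. Kcnh3 (4.6), the accessory subunits Kcnab1 (2.74), Kcnip2 (1.95) and Kcnab3 (1.42), and the M-current channel Kcnq5 (1.53) made up the CEA side. Kcna3 (-1.75) and Kcnc4 (-1.40) made up that of the PVN.

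Genes of ependyma and tanycytes, the cells that line the ventricle, were mostly higher in the PVN. By the first test 8 of 12 were higher in the PVN and 3 in the CEA, with a median log2 fold change of -1.26. Of the 12, 5 were over 2-fold higher in the PVN (8 without CEA HT replicate 2) and 2 in the CEA. The PVN side held 4 genes of motile cilia (Dnah11, Ccdc153, Dnah6 and Cfap43, -1.92 to -2.14). The CEA side was the thyroid hormone binding protein Crym (1.81) and Rarres2 (1.6). Other members did not pass the filter on low counts. Rax, Fndc3c1 and Spag16 had 1, 8 and 8 counts in the CEA and 281, 338 and 33 in the PVN, and Mia had 68 and 60. Of 15 thalamic markers, Calb2 was over 2-fold higher in the PVN (-2.78) and Cplx1 in the CEA (1.51). Neither oligodendrocyte precursors (5 of 7 genes higher in the CEA by the first test) nor meningeal fibroblasts (3 of 10) held a gene over 2-fold, except 1 precursor gene without CEA HT replicate 2 or PVN HT replicate 2. Of the pituitary genes, Lhb (-0.59) and Tbx19 (-1.33) were tested and were higher in the PVN, and Prl had 0 counts in the 18 libraries.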
